A study of Homo sapiens with 15 samples.

Results

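Osimertinib-resistant H1975-OR cells were compared with the parental H1975 cells from which they were derived, both treated with vehicle. The comparison used every library that the labels place in these groups, Samples 1a, 1b, and 1c (H1975) and Samples 2a, 2b, and 2c (H1975-OR), which are 6 of the 15 libraries of the series. H1975 is an established lung adenocarcinoma line with EGFR L858R, an activating change, and EGFR T790M, a change in the drug-binding pocket that blocks earlier EGFR inhibitors. The H1975-OR subline was obtained by keeping H1975 in osimertinib, a third-generation EGFR inhibitor that binds T790M receptors, and the study describes no cloning step. It was maintained in 500 nM osimertinib, so the vehicle-treated H1975-OR cells spent the 96 h of the experiment without drug. Both lines received vehicle at 0, 48, and 92 h in medium with charcoal-stripped serum, and RNA came from 3 separate passages. One parental line and the subline derived from it were sampled, so a difference can belong to this subline as well as to resistance, which cannot be told apart here.

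EGFR and its relatives are receptor tyrosine kinases that carry growth signals through RAS and MAPK and through PI3K and AKT. Carcinoma cells can escape EGFR inhibitors by changes in the receptor, by other receptors that feed the same cascades, or by a shift in cell state. One such shift is the epithelial-mesenchymal transition (EMT), in which cells take down the junctions and the apical surface that bind epithelial sheets and produce more of the cytoskeleton and matrix of migratory cells. ZEB and SNAI proteins repress epithelial genes in this transition, and GRHL2 and the splicing regulator ESRP1 act on the epithelial side.

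The 6 libraries held between 4724370 and 5447790 estimated counts, and mitochondrially encoded genes took between 0.685% and 1.05% of them. PLCG2, which encodes a phospholipase, took the most counts of any gene in each of the 6 libraries, between 3.30% and 5.86%, and whether all of these reads came from that gene could not be checked in a table of counts. Levels are given as CPM, the counts of a gene per 1000000 counts of the TMM-adjusted library total, without correction for gene length. Across genes, each library correlated with the others of its line at a mean Pearson's r between 0.919 and 0.945, and with those of the other line between 0.851 and 0.881. Differences are log2 fold changes of H1975-OR against H1975 with their standard error (SE), so positive values mean higher in the resistant line, and a gene was called when its adjusted p in edgeR's quasi-likelihood test was under 0.05.

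The resistant line differed from its parent at 2538 of 12513 tested genes, 20.3% of them. Of these, 1245 were higher in H1975-OR (9.95% of the genes tested) and 1293 were lower (10.3%). The median over all genes was 0.01, which the TMM scaling sets near 0. Among the called genes, the fitted difference was over 2-fold at 539 higher and 721 lower genes and over 16-fold at 66 and 86, and a test against a 2-fold change called 139 higher and 204 lower. The libraries of the lines did not overlap at 2470 genes higher in H1975-OR (19.7%) and 2477 lower (19.8%), which includes genes that were not called. The number of calls without Sample 1b was 1430, without Sample 2b 1457, and without Sample 1c 1666. In a fit of the vehicle groups alone, 2072 genes were called.

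Genes of the epithelial surface and regulators of epithelial identity were among the deepest losses in H1975-OR, 8 of the 15 largest falls belonging to the epithelial lists described here. These lists were chosen with earlier results of these data known, so the overlap is a description and not a test. ESRP1, which sets the epithelial pattern of alternative splicing, was at 37.0, 72.4, and 95.1 CPM in Samples 1a, 1b, and 1c and at 0.207, 0, and 0 CPM in Samples 2a, 2b, and 2c. Its 1081 counts in H1975 stood against 1 count in H1975-OR, a ratio of 986 with a 95% counting interval of 177 to 38959 (adjusted p = 0.000334). GRHL2, a transcription factor that maintains junction genes, fell from 21.9, 51.2, and 63.6 CPM to 0, 0, and 0.388 CPM, or from 722 counts to 2 (ratio 329, counting interval 91.2 to 2719.9, adjusted p = 0.000905). Every H1975 library was far above every H1975-OR library for both regulators, and Sample 1a was the lowest of the parental libraries for both.

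Other regulators of the epithelial state moved the same way. OVOL1, a repressor of ZEB1, fell from 5.39, 18.0, and 17.6 CPM to 0, 0.626, and 0.194 CPM (log2 fold change -5.53, adjusted p = 0.004), and the forkhead factor FOXA2 from 3.13, 6.71, and 9.12 CPM to 0.413, 0, and 0 CPM (adjusted p = 0.0126). Of 14 tested epithelial transcription and splicing regulators, 8 were lower and 1 higher, with a median log2 fold change of -3.89 beside 0.01 over all genes. Without Sample 1c, 5 of them were called lower, and without any library other than Sample 1c none was called higher. Across the alternative settings, which also changed the genes tested, the median of this list lay between -4.36 and -0.99.

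Junction and surface proteins followed. CDH1, which encodes E-cadherin, the core of the adherens junction, was at 108, 238, and 382 CPM in the H1975 libraries and at 9.502, 6.26, and 5.24 CPM in the H1975-OR libraries (34.6-fold lower, log2 fold change -5.11 ± 0.50 SE, adjusted p = 0.000552). EPCAM, an epithelial adhesion protein, went from 75.2, 172, and 206 CPM to 12.8, 9.39, and 12.8 CPM and fell 12.9-fold. The lines did not overlap for either gene, and Sample 1a was again the lowest of H1975. ST14 encodes matriptase, a protease of the epithelial surface, and SPINT1 encodes its inhibitor. Both fell, ST14 from 36.5, 83.7, and 106 CPM to 1.24, 2.30, and 2.72 CPM (log2 fold change -5.15, adjusted p = 0.000471) and SPINT1 from 10.4, 49.0, and 72.8 CPM to 1.03, 0.835, and 0.388 CPM (log2 fold change -5.84, adjusted p = 0.00208). MAL2, which carries proteins to the apical membrane, fell from 70.6, 215, and 328 CPM to 6.82, 0.209, and 0.971 CPM (adjusted p = 0.00233), with no overlap although Sample 1a was well under the other parental libraries. Of 22 tested genes of the adherens junction, polarity, and surface proteases, 11 were lower and 1 higher (median log2 fold change -1.25), and without Sample 1b 7 were lower and without Sample 2a 2 were higher.

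Among the tight junction genes, 4 of 16 were lower (median -0.57), and the count was 2 without any of Samples 1b, 1c, 2b, or 2c. CLDN4, a claudin of barrier epithelia, fell from 165, 358, and 521 CPM to 39.9, 65.8, and 52.8 CPM, and CLDN7 from 8.34, 33.0, and 57.6 CPM to 0, 0.626, and 0.583 CPM (adjusted p = 0.0028 and 0.00386). Another list joined genes of the hemidesmosome, which anchors epithelial cells to the basement membrane, with laminin-332 and epithelial integrins. Of its 11 tested genes, 4 were lower and 1 was higher (DST, log2 fold change 0.86, adjusted p = 0.00775). The integrin subunit ITGB6, which activates latent TGF-beta, was at 12.7, 49.5, and 65.5 CPM in H1975 and had no count in any H1975-OR library. Against a floor of 3 counts over the group it was at least 203-fold lower. The laminin-332 chain LAMB3 fell as well (log2 fold change -2.26, adjusted p = 0.000147). LAD1, a filament protein of the basement membrane zone that was in no list, was at 39.1, 74.2, and 98.1 CPM in H1975 and also had no count in H1975-OR, at least 340.0-fold lower.

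Desmosome and keratin genes were called in both directions, the 1 higher in each list being near the share of 9.95% over all genes. Of 9 tested desmosome genes, 2 were lower and 1 higher (2 higher without Sample 2c). PKP3, a plaque protein, went from 76.5, 110.3, and 122 CPM to 33.5, 42.4, and 38.1 CPM and fell 2.71-fold, while periplakin (PPL) was 2.13-fold higher, both without overlap. Of 12 tested keratins, 3 were lower and 1 higher (0 higher without Sample 1b, 1c, 2b, or 2c and 2 without Sample 2a). KRT7 fell from 1006, 1437, and 1926 CPM to 558, 457, and 578 CPM and KRT19 from 1038, 1225, and 1163 CPM to 212, 422, and 394 CPM (adjusted p = 0.00426 and 0.00237). KRT8, a keratin of simple epithelia, was at 475, 505, and 412 CPM in H1975 and 681, 319, and 329.7 CPM in H1975-OR, where the libraries overlapped (95% interval of the log2 fold change -0.70 to 0.57). Its partner KRT18 rose 1.3-fold (adjusted p = 0.0337) and lost the call without Samples 1a, 1b, 1c, 2b, or 2c, at adjusted p between 0.0602 and 0.125. Joining these 6 lists, 84 genes were tested, of which 32 were lower and 5 higher (median log2 fold change -0.70). Keeping only genes with at least 10 counts in every library left 3 of the regulators, 4 of the adherens junction and polarity genes, and 2 of the tight junction genes called lower, since that filter drops genes that are near 0 in H1975-OR. In these bulk libraries, a lower share of cells with a transcript and less of it per cell cannot be told apart.

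Some of the fallen genes hold, before the transcription start given in a promoter table, the letters of the E-box read by ZEB and SNAI repressors, CAGGTG or CACCTG on the other strand. These are shown because those repressors are central to EMT. Of the 32 fallen genes of the epithelial lists, 15 had a promoter in the RefSeq table used here, and 7 of these held the motif within 250 bases before the start, beside 17.5% of all 27305 promoters in the table. With fewer than 80% of the genes covered, the comparison of shares is void and the sequences are given as description. The promoters below run 5′ to 3′ on the gene's strand in GRCh38.p14, with the motif in capitals. CRB3, which encodes an apical polarity protein, holds 5 copies (chr19:6464021-6464270, plus strand), and ITGB6 (chr2:160200273-160200522, minus strand), RAB25 (chr1:156060910-156061159, plus strand), and LAMB3 (chr1:209652426-209652675, minus strand) hold 1 each.
CRB3: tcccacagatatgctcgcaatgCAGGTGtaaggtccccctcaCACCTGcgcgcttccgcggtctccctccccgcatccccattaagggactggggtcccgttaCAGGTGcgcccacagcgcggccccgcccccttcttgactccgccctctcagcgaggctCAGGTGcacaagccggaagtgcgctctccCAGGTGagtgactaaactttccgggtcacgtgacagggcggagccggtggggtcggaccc
ITGB6: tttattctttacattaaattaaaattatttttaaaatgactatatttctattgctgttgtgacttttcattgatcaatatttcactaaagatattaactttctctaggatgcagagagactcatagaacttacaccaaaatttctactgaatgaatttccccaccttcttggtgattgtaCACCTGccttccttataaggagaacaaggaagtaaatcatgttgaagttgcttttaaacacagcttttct
RAB25: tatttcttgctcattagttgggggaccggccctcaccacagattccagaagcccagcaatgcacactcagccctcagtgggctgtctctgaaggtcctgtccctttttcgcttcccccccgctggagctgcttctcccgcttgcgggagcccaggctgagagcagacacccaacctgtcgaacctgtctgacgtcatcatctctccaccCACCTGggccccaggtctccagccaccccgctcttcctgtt
LAMB3: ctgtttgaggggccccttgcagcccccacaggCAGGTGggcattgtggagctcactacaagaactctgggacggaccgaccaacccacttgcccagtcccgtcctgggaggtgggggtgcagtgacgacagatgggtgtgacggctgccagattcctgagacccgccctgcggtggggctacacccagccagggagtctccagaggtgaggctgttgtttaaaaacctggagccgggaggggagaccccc
CRB3 itself fell from 4.34, 10.9, and 13.98 CPM to 0.826, 0.418, and 1.75 CPM (log2 fold change -3.24, adjusted p = 0.0103). RAB25, a trafficking protein of polarized epithelia, fell from 1.91, 4.54, and 5.88 CPM to no count in any H1975-OR library (adjusted p = 0.0151, and 0.0540 without Sample 1c, while without Sample 1b it did not pass the filter on low counts). The CRB3 stretch precedes the start that the table uses, which lies inside the annotated span of the gene, downstream of its outermost start. A matching sequence does not show that a repressor was bound there.

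**Figure D1:**
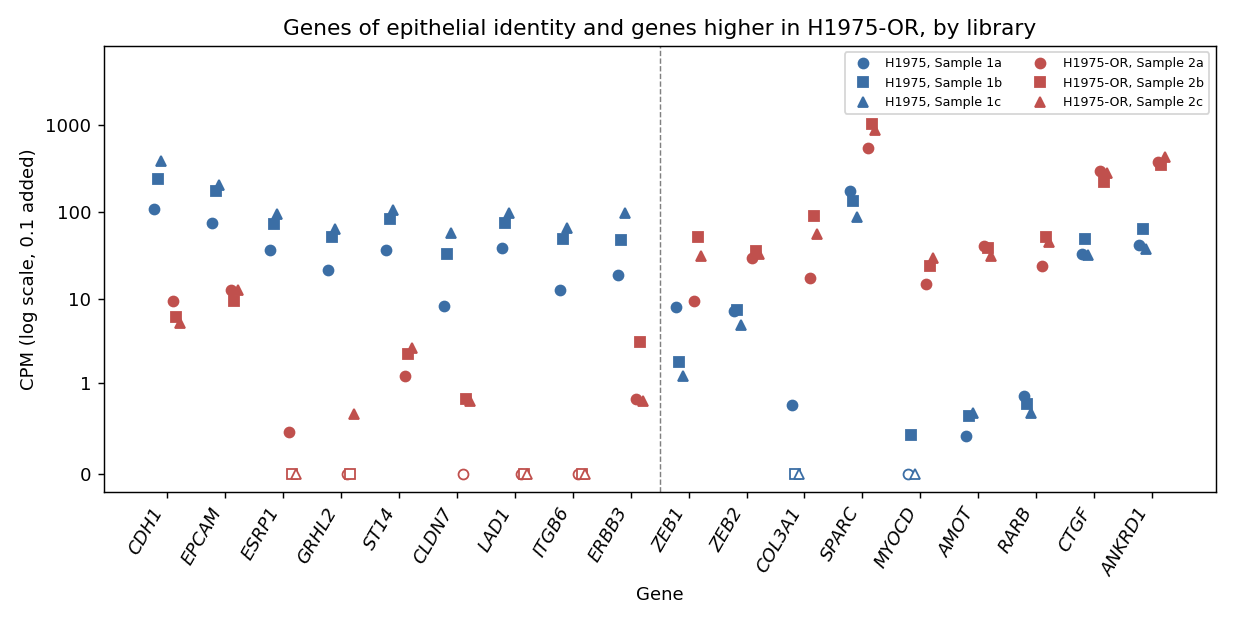
CPM of 18 genes in each library, on a log axis with 0.1 added, with H1975 in blue and H1975-OR in red and open symbols for libraries at 0. The 9 genes on the left are lower in every H1975-OR library, and of the 9 on the right ZEB1 has the narrowest gap, with 9.5 CPM in Sample 2a and 8.17 CPM in Sample 1a.

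On the mesenchymal side, the transcription factors of EMT were split. ZEB2 was at 7.30, 7.44, and 5.07 CPM in H1975 and 29.7, 35.9, and 32.6 CPM in H1975-OR, a 4.93-fold rise with tight libraries (log2 fold change 2.30 ± 0.21 SE, adjusted p = 0.000468). ZEB1 was at 8.17, 1.81, and 1.22 CPM and 9.502, 51.8, and 31.7 CPM, so Sample 2a lay close to Sample 1a while Samples 2b and 2c were well above (log2 fold change 3.02 ± 0.81 SE, adjusted p = 0.0318). That call was lost without Samples 1b, 1c, 2b, or 2c, at adjusted p of 0.108, 0.0916, 0.102, and 0.065. SNAI2 fell from 16.7, 23.2, and 21.7 CPM to 10.5, 10.0, and 7.18 CPM (log2 fold change -1.15, adjusted p = 0.0153), and the call was lost without Sample 1b (0.061) or Sample 2c (0.0505) and in a fit of all 14 libraries other than 3a (0.0835). Of 6 tested factors, 3 were higher and 2 lower. The number higher was 1 without any of Samples 1b, 1c, 2b, or 2c, and the number lower was 0 without Sample 1b or 2c and 1 without Sample 1c, 2a, or 2b, while TWIST1 had no count in any of the 6 libraries.

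Of 19 tested genes of the mesenchymal cytoskeleton and adhesion list, 4 were higher and 2 lower (median -0.04). VIM, which encodes the intermediate filament vimentin, was at 3041, 2596, and 2192 CPM in H1975 and 2939, 3963, and 4222 CPM in H1975-OR. The libraries overlapped, and the rise was not called (log2 fold change 0.51 ± 0.18 SE, 95% interval 0.10 to 0.91, adjusted p = 0.0782). CDH2, which encodes N-cadherin, did not reach 1 CPM in any of the 6 libraries and was not tested. Genes of this list that rose were SPARC, a matrix-binding glycoprotein, from 172, 132, and 88.6 CPM to 547, 1011, and 872 CPM (log2 fold change 2.63, adjusted p = 0.000919), the tropomyosin TPM1 (3.15-fold), and S100A4 (2.61-fold). NT5E, the surface enzyme CD73, fell from 153, 161, and 182 CPM to 16.9, 27.6, and 45.8 CPM, and the fibronectin receptor subunit ITGA5 from 325, 219.6, and 259.8 CPM to 94.6, 62.2, and 60.4 CPM. These genes separated the lines without overlap in both directions.

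Matrix genes were called in both directions. Of 23 tested collagens and collagen-modifying enzymes, 9 were higher and 4 lower (median log2 fold change 0.15), with 5 higher without Sample 1c or 2b and 2 lower without Sample 1b, 1c, or 2c. COL3A1, a fibrillar collagen, had 3 and 803 counts in H1975 and H1975-OR, with 17.4, 89.3, and 56.5 CPM in the resistant libraries (ratio 293, counting interval 100.4 to 1422, adjusted p = 0.00118). COL8A1, a short-chain collagen, rose from 97.3, 30.7, and 30.0 CPM to 475, 627, and 477 CPM, and LOXL4, which cross-links collagen, from 7.47, 5.81, and 9.73 CPM to 30.8, 53.0, and 39.0 CPM (adjusted p = 0.00201 and 0.00121). COL1A2, a chain of type I collagen, moved against them, from 11.8, 13.97, and 10.3 CPM to 2.27, 0.418, and 0.388 CPM (log2 fold change -3.53, adjusted p = 0.00685).

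Of 17 tested matrix glycoproteins, 6 were higher and 2 lower (median 0.80). Fibronectin (FN1), often taken as a mesenchymal marker, was at 511, 666, and 954 CPM in H1975 and 66.1, 52.8, and 51.1 CPM in H1975-OR, a 12.5-fold fall with no overlap (log2 fold change -3.65 ± 0.25 SE, adjusted p = 0.000147). TNC, which encodes tenascin-C, rose 2.44-fold and THBS1, which encodes thrombospondin, 1.90-fold (adjusted p = 0.00204 and 0.00357). Of 20 tested matrix proteases and inhibitors, 3 were higher and 4 lower, and leaving out 1 library left as few as 1 in each direction. SERPINB5, which encodes the epithelial serpin maspin, fell from 11.1, 29.4, and 43.8 CPM to 1.03, 0.626, and 0 CPM (adjusted p = 0.00273), and the plasminogen activator PLAT rose 2.38-fold.

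**Figure D2:**
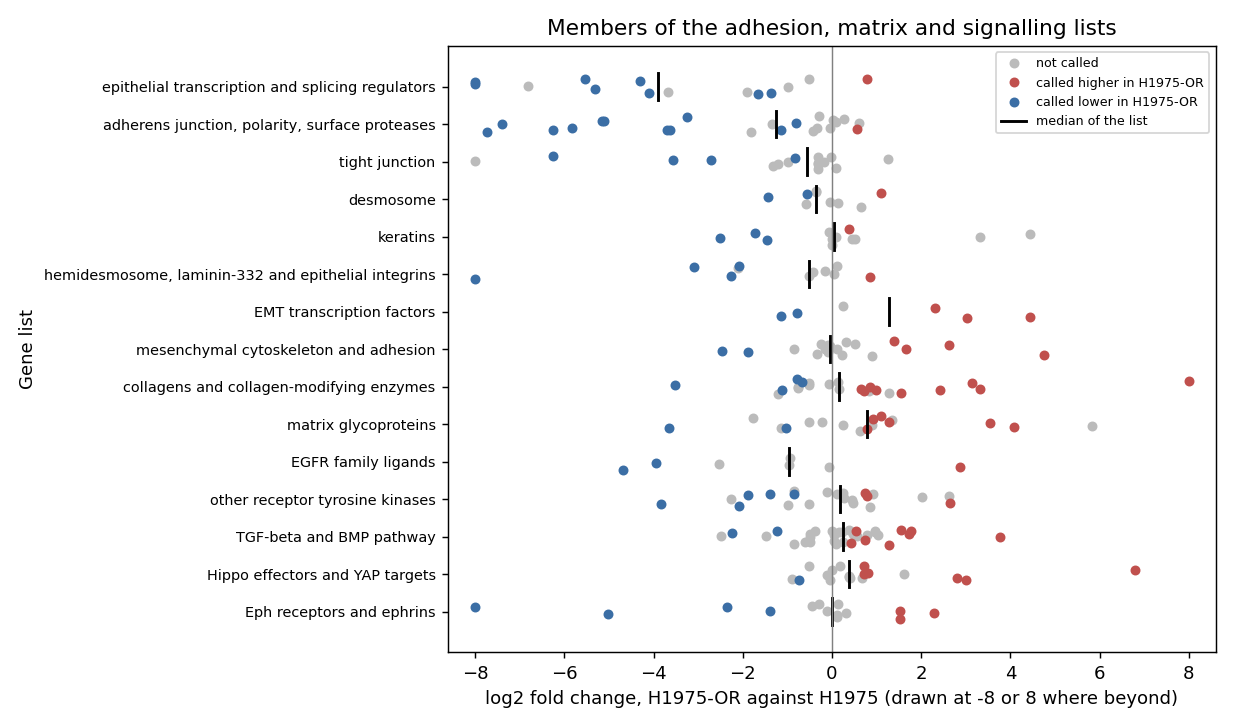
Log2 fold change of each tested member of 15 gene lists, coloured by call, with a bar at the list's median; values beyond 8 in size are drawn at the edge, since for genes at or near 0 in one line they depend on the prior count. The epithelial lists at the top reach far to the left, and the matrix lists spread to both sides.

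In the EGFR family, receptors and ligands were called in both directions. EGFR was at 215, 201, and 310.5 CPM in H1975 and 104, 179.7, and 176 CPM in H1975-OR. Every resistant library was under every parental library, but the fall was not called (log2 fold change -0.66 ± 0.23 SE, 95% interval -1.19 to -0.13, adjusted p = 0.0773). ERBB2 gave 86.2, 117, and 128 CPM and 102, 160.3, and 110.1 CPM, with an interval of -0.32 to 0.66. ERBB3, the kinase-poor partner that couples the family to PI3K, fell from 19.1, 47.2, and 96.7 CPM to 0.620, 3.13, and 0.583 CPM, 37.3-fold (adjusted p = 0.00454). ERBB4 had no count in any H1975 library and was at 2.07, 3.55, and 4.08 CPM in H1975-OR (48 counts, at least 17.5-fold higher against the floor, adjusted p = 0.00862), a low level in each resistant library.

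Among the ligands, HBEGF rose while the amphiregulin and epiregulin genes fell. HBEGF went from 27.5, 35.9, and 21.5 CPM to 131, 182, and 308 CPM (7.30-fold, log2 fold change 2.87 ± 0.34 SE, adjusted p = 0.0013). EREG went from 32.8, 90.5, and 96.7 CPM to 1.24, 2.30, and 4.85 CPM (log2 fold change -4.69, adjusted p = 0.00177) and AREG from 9.91, 42.8, and 72.2 CPM to 1.24, 2.09, and 4.66 CPM (log2 fold change -3.94, adjusted p = 0.00803). All 3 ligands separated the lines without overlap. Of 7 tested ligands, 1 was higher and 2 lower, and 4 were lower without Sample 2a.

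Of 22 other receptor tyrosine kinases tested, 3 were higher and 5 lower (median 0.18), and 2 were higher without Sample 2b and 5 without Sample 1a. MET, the receptor of hepatocyte growth factor and a known bypass of EGFR inhibition, fell from 668, 795, and 961 CPM to 353, 157, and 152 CPM (log2 fold change -1.87 ± 0.32 SE, adjusted p = 0.00538), its relative MST1R from 17.0, 17.4, and 22.7 CPM to 4.75, 3.97, and 4.66 CPM. PDGFRB, a receptor of mesenchymal cells, rose from 5.39, 2.00, and 2.63 CPM to 29.5, 19.0, and 15.1 CPM (log2 fold change 2.65, adjusted p = 0.00461), and the insulin receptor INSR rose 1.66-fold. AXL, another receptor linked to resistance, was at 157, 98.7, and 84.1 CPM and 176, 151, and 143 CPM with overlapping libraries (95% interval -0.03 to 0.96, adjusted p = 0.167), and IGF1R had an interval of -1.49 to 0.45. Of 13 tested growth factors of these receptors, 3 were higher. They included BDNF, from 27.8, 31.8, and 20.9 CPM to 107, 102, and 124 CPM (log2 fold change 2.05, adjusted p = 0.000264), and PDGFD, a ligand of PDGFRB, from 4.00, 6.53, and 5.47 CPM to 17.1, 30.3, and 26.6 CPM (log2 fold change 2.21, adjusted p = 0.00174).

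Genes that report MAPK activity did not move together. Of 19 tested, 5 were higher and 4 lower (median 0.26). The number higher was 2 without Sample 1b or without Sample 2c, 3 without Sample 1c or without Sample 2b, and 8 without Sample 2a. The phosphatases DUSP4 and DUSP5 fell 3.11-fold and 2.18-fold, as did PHLDA1 (2.82-fold) and FOSL1 (2.501-fold), an AP-1 subunit. The feedback inhibitor SPRY2 rose from 31.8, 25.9, and 33.8 CPM to 62.0, 84.1, and 92.2 CPM (log2 fold change 1.38, adjusted p = 0.00177). DUSP6, a phosphatase of ERK, was at 3.92, 18.8, and 27.8 CPM in Samples 2a, 2b, and 2c against 16.7, 21.0, and 22.7 CPM in H1975, so the resistant libraries lay on both sides of the parental ones (95% interval -1.50 to 0.99). CCND1, which encodes cyclin D1, was split in the same way, at 266, 922, and 986 CPM in H1975-OR and 304, 406, and 446 CPM in H1975 (adjusted p = 0.152).

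In the PI3K and AKT list, 3 of 16 tested genes were higher and 1 lower (2 lower without Sample 2a). The regulatory subunit PIK3R1 rose from 24.8, 20.7, and 31.8 CPM to 87.6, 155, and 127 CPM (log2 fold change 2.25 ± 0.23 SE, adjusted p = 0.000713). The kinase AKT1 fell from 205, 244, and 263 CPM to 141, 127, and 160.0 CPM (adjusted p = 0.00783).

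The largest rises included MYOCD, AMOT, and RARB. MYOCD, the coactivator that turns on smooth muscle genes with SRF, had 1 and 339 counts in H1975 and H1975-OR, with 14.9, 24.2, and 29.3 CPM in the resistant libraries (ratio 372, counting interval 66.7 to 14675, adjusted p = 0.000215). AMOT, a scaffold that binds YAP, rose from 0.174, 0.363, and 0.405 CPM to 40.7, 38.4, and 31.3 CPM, 110.3-fold (log2 fold change 6.78 ± 0.33 SE, adjusted p = 5.14e-05). RARB, a retinoic acid receptor, rose from 0.695, 0.544, and 0.405 CPM to 24.2, 52.2, and 45.8 CPM (70.4-fold, adjusted p = 0.000147). All libraries of H1975-OR stood far above those of H1975 for these 3 genes.

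The YAP targets CTGF and ANKRD1 rose with AMOT. CTGF went from 33.0, 49.0, and 32.4 CPM to 297, 219, and 282 CPM (log2 fold change 2.80, adjusted p = 0.000147) and ANKRD1 from 42.4, 63.1, and 37.9 CPM to 371, 348, and 428 CPM (log2 fold change 3.00, adjusted p = 0.000136). Of 18 tested Hippo effectors and YAP targets, 6 were higher and 1 lower (median 0.39; 0 lower without Sample 1b, 1c, 2b, or 2c), YAP1 itself not being called (95% interval 0.08 to 0.68). Among the TGF-beta and BMP genes, 8 of 33 were higher and 2 lower (median 0.25), and 4 were higher without Sample 1b and 5 without Sample 1c. INHBA, which encodes the activin A subunit, rose from 7.82, 1.09, and 1.01 CPM to 51.6, 44.3, and 43.7 CPM (log2 fold change 3.77, adjusted p = 0.00403). SMAD6 and BAMBI, inhibitors of these pathways, rose 3.41-fold and 2.42-fold, and SMAD9, a BMP effector, 2.93-fold. LTBP1, which holds latent TGF-beta, fell from 32.1, 37.0, and 40.5 CPM to 13.6, 5.64, and 3.88 CPM, and the TGF-beta target PMEPA1 from 72.1, 94.2, and 116 CPM to 36.6, 40.9, and 41.9 CPM. The ligands TGFB1 and TGFB2 were not called (95% intervals -0.95 to 1.04 and 0.03 to 0.96).

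Of 17 tested WNT genes, 4 were higher and 2 lower (1 lower without Sample 1b, 1c, 2b, or 2c). WNT5A, a ligand of the non-canonical branch, rose from 1.22, 3.08, and 1.82 CPM to 10.5, 11.1, and 12.8 CPM and its relative WNT9A fell from 37.2, 88.6, and 99.9 CPM to 7.02, 16.7, and 12.4 CPM (adjusted p = 0.00457 and 0.00404). In the Notch list, 1 of 12 tested genes was lower, the receptor NOTCH3, from 4.34, 12.5, and 29.2 CPM to 0.826, 2.51, and 1.17 CPM (adjusted p = 0.0157), whose call was lost without Sample 1c (0.0566) or Sample 2c (0.0545). In that list 2 genes were lower without Sample 1a or 2b, and 1 was higher without Sample 2a. The counts lower in the WNT and Notch lists were near the share of 10.3% over all genes.

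Guidance receptors and ligands were called in both directions. Of 14 tested Eph receptors and ephrins, 3 were higher and 4 lower. EPHA1, an epithelial receptor, was at 8.86, 18.5, and 31.8 CPM in H1975 and had no count in H1975-OR, at least 94.3-fold lower. EPHA4 rose from 4.34, 6.90, and 9.12 CPM to 33.1, 28.6, and 38.3 CPM, EPHB2 fell from 60.6, 57.2, and 69.1 CPM to 30.8, 21.1, and 20 CPM, and the ligands EFNB1 and EFNB2 moved apart, 2.88-fold higher and 5.14-fold lower. Of 28 tested semaphorins, plexins, netrins, and their receptors, 4 were higher and 4 lower, and 2 were higher without any of Samples 1b, 1c, or 2b. The calls were 14.3% in each direction, beside 9.95% higher and 10.3% lower over all genes. SEMA3E rose from 11.1, 34.7, and 31.4 CPM to 206, 257, and 226 CPM (log2 fold change 3.16, adjusted p = 0.000974), SEMA7A fell from 21.2, 57.7, and 55.1 CPM to 7.64, 2.51, and 4.27 CPM (log2 fold change -3.21, adjusted p = 0.00404), and the co-receptor NRP1 fell 2.01-fold.

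Beside the lists, the largest rises also took in IGFBP5, which binds insulin-like growth factors, from 4.17, 1.27, and 2.23 CPM to 81.6, 92.7, and 81.9 CPM (32.8-fold, adjusted p = 0.000103), and ALPP, the placental alkaline phosphatase, from 1.39, 2.18, and 1.42 CPM to 41.3, 34.4, and 45.6 CPM (24.0-fold). The adhesion molecule SDK1 rose 25.0-fold, the polarity gene PARD3B 21.3-fold, the chloride channel gene CLIC2 19.5-fold, C1orf115 27.0-fold, and FAM134B, a receptor for autophagy of the endoplasmic reticulum, 15.1-fold. The synaptic adhesion gene LRRC4C and the potassium channel gene KCNT2 had no count in any H1975 library and were at 8.68, 13.99, and 14.6 CPM and 7.64, 18.0, and 10.7 CPM in H1975-OR, at least 67.2-fold and 65.0-fold higher. ALPK2 and YBX3 also rose but rested on part of the resistant libraries. ALPK2 was at 125, 13.6, and 5.24 CPM in Samples 2a, 2b, and 2c (adjusted p = 0.036, and 0.0893 without Sample 2a, 0.066 without 1a, 0.117 without 1b, and 0.114 without 1c). YBX3 was at 4.54, 45.3, and 44.9 CPM (adjusted p = 0.0499), and leaving out any 1 library other than Sample 2a lost its call, at up to 0.143. Among the largest falls outside the lists were TCN1, a vitamin B12 carrier (55.6-fold), AIM2, a DNA sensor of the inflammasome, from 19.98, 30.5, and 39.3 CPM to 0.207, 1.25, and 0.194 CPM (52.7-fold, adjusted p = 0.00193), TMEM30B (43.0-fold), and the p53 target PHLDA3 (39.9-fold).

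Proliferation genes were lower in H1975-OR as a group. Of 43 tested S phase genes, 28 were lower, with a median log2 fold change of -1.37, and of 53 tested G2/M genes 43 were lower, with a median of -1.43. None was called higher by edgeR or by DESeq2, and at an unadjusted p under 0.05 in edgeR 1 S phase gene and 0 G2/M genes were higher. RRM2, a subunit of ribonucleotide reductase, fell from 270.2, 277, and 309 CPM to 55.8, 25.5, and 31.1 CPM (log2 fold change -2.93, adjusted p = 0.000468), and the replication clamp PCNA from 394, 378, and 355 CPM to 185, 129.6, and 149 CPM (log2 fold change -1.28, adjusted p = 0.000784). In G2/M, the condensin subunit SMC4 fell from 121, 113, and 138 CPM to 26.4, 18.4, and 27.2 CPM (log2 fold change -2.36, adjusted p = 0.000205), CDK1 from 178, 179, and 169 CPM to 66.3, 29.2, and 37.5 CPM (log2 fold change -1.98, adjusted p = 0.00237), and the proliferation marker MKI67 from 336, 199.6, and 442 CPM to 89.2, 57.4, and 42.7 CPM (log2 fold change -2.37, adjusted p = 0.00406, and 0.0534 with Sample 3a kept in). Sample 2a was the highest of the resistant libraries for 27 of the S phase genes and 41 of the G2/M genes. Leaving out any 1 library left at least 21 S phase and 34 G2/M genes lower.

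Replication-dependent histone genes, a group chosen after its values were seen, were also lower. Of 65 tested genes with HIST1, HIST2, HIST3, or HIST4 symbols, 59 were lower, and 64 had a log2 fold change below 0, with a median log2 fold change of -1.93. Their summed level was between 11150 and 12501 CPM in H1975 and between 3186 and 3771 CPM in H1975-OR. Most of these transcripts carry no poly(A) tail, which the authors' total RNA libraries do not select for, and HIST2H3A and HIST2H3C had equal values in every library. Many histone genes have near-identical copies, and how the authors' counting divided reads among them was not tested.

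The regulators of entry into S phase were mixed. Of 20 tested G1 cyclins, kinases, and inhibitors, 4 were higher and 6 lower, and 2 were higher without Sample 1a or without Sample 1b. E2F1 fell from 69.3, 69.9, and 67.5 CPM to 20.04, 7.31, and 9.90 CPM (log2 fold change -2.47, adjusted p = 0.00237), CDK2 from 107, 89.3, and 92.8 CPM to 31.0, 24.0, and 18.8 CPM (log2 fold change -1.97, adjusted p = 0.000552), and CCNE2, a cyclin that activates CDK2, 4.39-fold. The CDK inhibitors CDKN1C and CDKN2C rose, CDKN1C from 6.43, 4.54, and 5.47 CPM to 27.5, 61.6, and 73.0 CPM (log2 fold change 3.29, adjusted p = 0.00104) and CDKN2C 2.20-fold. CDKN1A, the p53-induced inhibitor, overlapped between the lines, at 31.5, 73.5, and 71.7 CPM and 49.2, 45.7, and 64.5 CPM (95% interval -0.85 to 0.55).

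Genes of the translation machinery moved the other way. Of 82 tested ribosomal protein genes, 34 were higher and 1 lower, with a median log2 fold change of 0.47. Their summed level was between 67155 and 76243 CPM in H1975 and between 84337 and 102928 CPM in H1975-OR, Sample 2a being the lowest of the resistant libraries for 58 of the 82. The one lower gene (2 without Sample 2a or 2c) was RPL39L, a paralog with restricted expression, from 47.4, 65.5, and 76.0 CPM to 30.4, 22.1, and 20.4 CPM. The number higher was 21 without Sample 2b, 45 without Sample 2a, and 10 when Sample 3a, a library of another condition that the study set aside, was kept in the fit. The elongation factor genes EEF2 (1.85-fold) and EEF1G (1.72-fold) rose as well, and EEF1A1 was 2.43-fold higher at adjusted p = 0.0141, which was 0.0601 without Sample 1b, 0.0567 without 1c, and 0.0505 without 2b. Many ribosomal protein and elongation factor genes have near-identical pseudogene copies, and the share of their reads that the authors' counting gave to such copies was not tested. The mitochondrially encoded genes gave no call among 13 tested (median -0.15) by edgeR or by DESeq2, with 1 lower and 0 higher at an unadjusted p under 0.05 in edgeR and 2 called lower without Sample 1b.

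**Figure D3:**
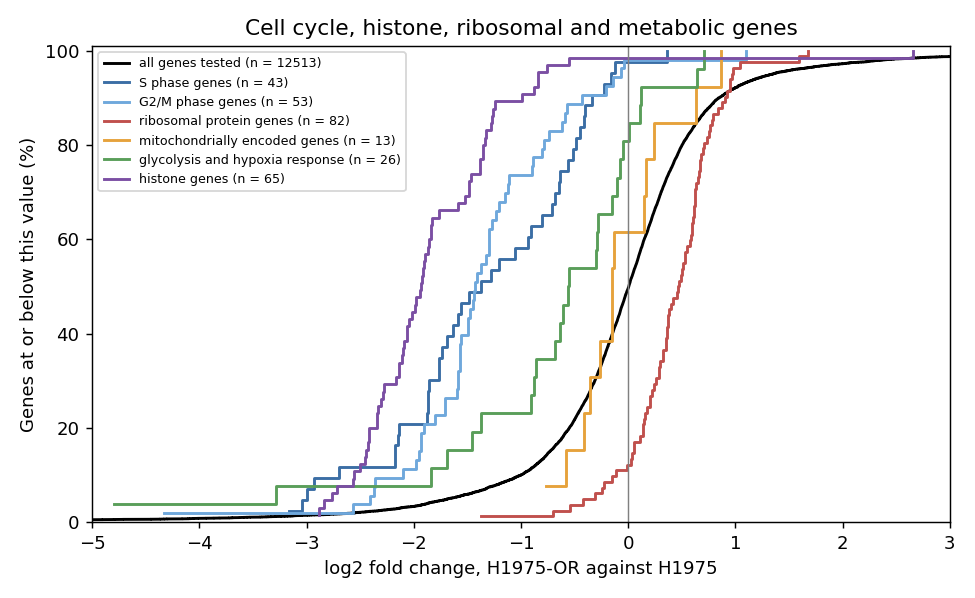
Cumulative share of genes (vertical axis, percent) at or below each log2 fold change (horizontal axis) for all tested genes and 6 groups. At their medians, the S phase, G2/M, and histone curves lie to the left of all genes, at -1.37, -1.43, and -1.93. The glycolysis median of -0.56 lies between these and that of all genes, and the ribosomal protein median of 0.47 lies to the right. In the left tail the glycolysis curve reaches further than the S phase and histone curves.

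Glycolysis and hypoxia genes were lower where they differed, at 10 of 26 tested (median -0.56). CA9 and CA12, carbonic anhydrases that respond to hypoxia-inducible factor, fell from 7.12, 10.2, and 12.97 CPM to 0.413, 0.418, and 0.194 CPM and from 72.3, 48.1, and 56.5 CPM to 6.61, 5.22, and 6.21 CPM (adjusted p = 0.00107 and 0.000434). The glycolytic enzymes PFKP, ENO2, and ALDOA fell 2.58-fold, 3.58-fold, and 1.82-fold. Of 18 tested NRF2 targets, 5 were lower, with 3 lower without Sample 1b or Sample 2b and 8 without Sample 2a. The heme oxygenase HMOX1 fell from 67.8, 146, and 122 CPM to 41.1, 22.1, and 15.9 CPM (log2 fold change -2.09, adjusted p = 0.0069). In cholesterol and fatty acid synthesis, 2 of 25 genes were higher (1 without Sample 1b, 1c, or 2b) and 3 lower (1 without Sample 1c, 2b, or 2c). These counts were near the shares of 9.95% and 10.3% over all genes. The sterol desaturase SC5D rose from 37.2, 56.8, and 43.4 CPM to 155, 157, and 135 CPM (log2 fold change 1.70, adjusted p = 0.000565).

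Of 11 tested efflux pumps and aldehyde dehydrogenases, which handle drugs and aldehydes, 1 was higher and 3 lower, the first near the share of 9.95% over all genes. The pump ABCG2 fell from 72.3, 45.7, and 31.8 CPM to 18.6, 17.1, and 21.6 CPM (log2 fold change -1.39, adjusted p = 0.0119) and ALDH1A3 from 53.7, 43.5, and 49.2 CPM to 10.1, 7.52, and 13.6 CPM (log2 fold change -2.23, adjusted p = 0.000936). ABCB1, the classical multidrug pump, was at or near 0 in all 6 libraries and was not tested. Of 14 tested BCL2 family genes, 3 were higher, with 0 without Sample 2b and 1 without Sample 1b or 1c. BCL2 was at 8.34, 3.08, and 4.05 CPM and 14.05, 28.6, and 18.4 CPM (adjusted p = 0.0132, and 0.0506 without Sample 2b). The BIM gene BCL2L11, a killer induced by EGFR inhibition, overlapped between the lines (95% interval -1.44 to 0.26).

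Of 27 tested interferon-stimulated genes, 2 were higher (4 without Sample 2a) and 4 lower, counts near the shares of 9.95% and 10.3% over all genes. IFITM1 fell from 65.3, 57.9, and 54.5 CPM to 16.1, 6.26, and 6.41 CPM and IFI27 from 102, 119, and 158 CPM to 46.1, 38.4, and 32.2 CPM (adjusted p = 0.00222 and 0.00133), while BST2 and IFIT2 rose 1.68-fold and 1.73-fold. For MHC class I and antigen processing, 3 of 15 were higher, with 1 higher without Sample 1b, and HLA-E rose 1.61-fold. Among 12 tested cytokines and chemokines 1 was called (2 lower without Sample 2a, and 1 higher without Sample 1c, 2a, or 2b), which is near the share of 10.3% lower over all genes. It was IL11, which fell from 29.0, 54.6, and 36.3 CPM to 9.30, 2.30, and 10.7 CPM (log2 fold change -2.42, adjusted p = 0.0103). Of 10 tested S100 genes, 3 were higher and 2 lower, with 1 higher without Sample 1a, 1c, 2b, or 2c and 0 lower without Sample 1b, 1c, or 2b. The vitamin D receptor VDR was at 32.5, 25.2, and 29.8 CPM and 27.1, 30.7, and 34.4 CPM (95% interval -0.31 to 0.46), and CYP24A1, the enzyme that degrades active vitamin D, fell from 25.7, 23.4, and 18.2 CPM to 8.68, 3.34, and 4.85 CPM (log2 fold change -2.00, adjusted p = 0.00539).

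Markers of lineage were checked against the label of both lines. NKX2-1, the lineage factor of lung adenocarcinoma, was present in all libraries, at 32.7, 43.5, and 58.0 CPM in H1975 and 32.2, 62.8, and 75.3 CPM in H1975-OR (95% interval -0.38 to 1.07). SOX9 fell 3.11-fold and FOXJ1, of ciliated cells, from 10.8, 9.98, and 12.6 CPM to 1.65, 1.25, and 0.583 CPM (log2 fold change -3.23, adjusted p = 0.00408, and 0.0674 in a fit of all 14 libraries other than 3a). Of 25 lineage markers, 10 passed the filter on low counts, with 1 higher (0 without Sample 1b, 1c, 2b, or 2c) and 2 lower, and the surfactant genes were not among those tested. Of 39 HOX genes, 6 were tested and none was called by edgeR or by DESeq2, nor had an unadjusted p under 0.05 in edgeR, while 1 was called higher without Sample 1a. Markers of other cell types stayed low in sum. The 12 immune markers summed to between 32.0 and 47.1 CPM in H1975 and between 14 and 21.1 CPM in H1975-OR, mostly CD68, with CD3E at 0 in all 6 libraries, and 1 of the 2 tested was lower (0 without Sample 1a, 1b, or 2b and 2 without Sample 2a). The 9 endothelial markers summed to between 7.82 and 9.12 CPM in H1975 and between 13 and 21.9 CPM in H1975-OR, and the 11 fibroblast markers to between 33.9 and 45.6 CPM and between 65.7 and 119 CPM. Of the fibroblast markers, COL3A1 and PDGFRB are named above as higher and COL1A2 as lower. Of 4 endothelial markers tested 1 was higher (0 without Sample 1a, 1b, 2b, or 2c), and of 4 fibroblast markers tested 2 were higher and 2 lower (1 lower without Sample 1b, 1c, 2a, 2b, or 2c). Of 14 neuroendocrine markers 3 were tested and 1 was lower (0 without Sample 1c or 2c), and of 10 squamous markers 2 were tested and 1 was higher (0 without Sample 1b, 1c, 2a, 2b, or 2c). The 6 erythroid markers summed to 0 in 5 libraries and to 0.174 CPM in Sample 1a.

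The libraries of a line were not alike in all of these genes. Among the 32 fallen genes of the epithelial lists, Sample 1a was the lowest of the H1975 libraries for 31 and Sample 1c the highest for 27. The summed level of these genes was 4116 CPM in Sample 1a, 5948 CPM in Sample 1b, and 7111 CPM in Sample 1c, against values between 1699 and 1727 CPM in the H1975-OR libraries. Over all genes tested, Sample 1a was the lowest of H1975 for 4343 of 12513. Within H1975-OR, Sample 2a differed from Samples 2b and 2c in both directions. CLDN1, a claudin, was at 97.7, 27.1, and 26.2 CPM in Samples 2a, 2b, and 2c, so that Sample 2a lay above the others, and LAMB1, a laminin chain, was at 5.16, 38.2, and 34.4 CPM, with Sample 2a below them. The part of passage in the differences between the lines was not tested.

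The called genes were spread unevenly over the chromosomes. Of 409 tested genes on chromosome X, 19.1% were higher and 7.33% lower, and of 597 on chromosome 5, 18.9% were higher and 4.36% lower. On chromosome 22 the share was reversed, with 2.33% of 301 genes higher, 18.9% lower, and their median at -0.35 on the log2 scale. Chromosomes 11 (17.1% higher, 6.0% lower) and 9 (16.1% and 6.01%) were among those that leaned upward. Among those that leaned downward were chromosomes 2 (5.24% and 15.1%), 3 (5.48% and 15%), 7 (6.83% and 15.4%), and 16 (3.97% and 13.7%). Base composition moved with the difference. In the fifth of genes with the lowest GC content of the longest transcript, 14.2% were higher and 8.95% lower, and in the fifth with the highest, 6.67% and 8.69%. After the median of genes of like GC content was subtracted, the median log2 fold change was 0.21 on chromosome X, 0.19 on chromosome 5, 0.20 on chromosome 11, -0.30 on chromosome 22, and -0.24 on chromosome 2, so the signs stayed. Transcript length was not adjusted for. Copy number was not measured in these data, and its part in the pattern was not tested.

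**Figure D4:**
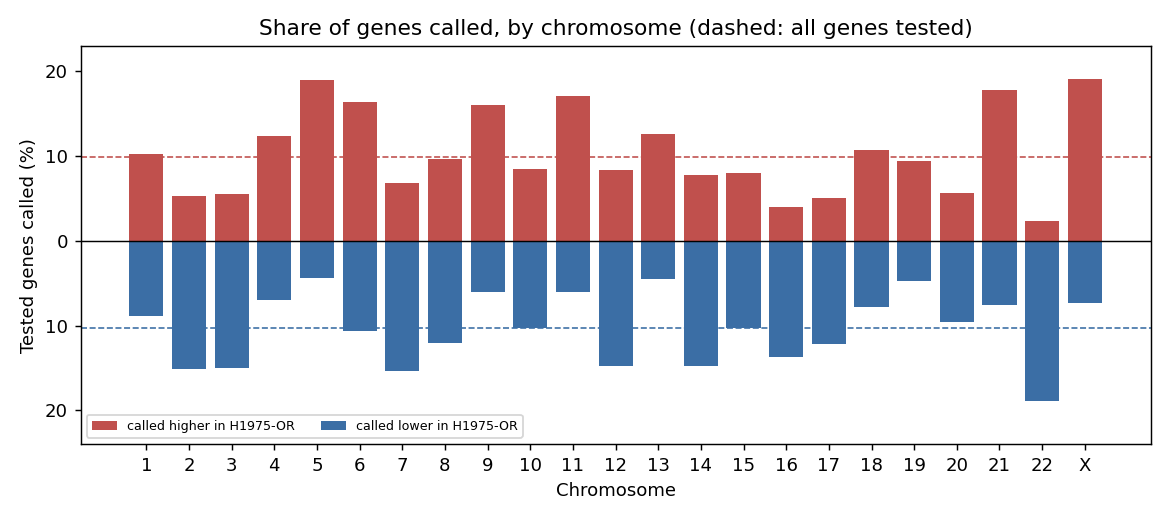
Percent of tested genes called higher (red, upward) and lower (blue, downward) in H1975-OR on each chromosome, with dashed lines at the shares over all tested genes, 9.95% and 10.3%. Chromosomes X, 21, and 5 have the tallest red bars and chromosome 22 the shortest, with the tallest blue bar.

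Neighbouring genes that moved together formed 9 runs of at least 8 consecutive tested genes with the same sign, of which at least 60% were called. The histone clusters made the longest, with 26 genes at chr6:26017032-26285534, 24 of them lower (median log2 fold change -1.86), and 16 genes at chr6:27807479-28089563, 14 of them lower (median -2.02). A run of 10 genes at chrX:102712448-103688047 that holds the BEX and TCEAL family had 6 higher (median 0.80), and 11 genes at chr5:10353695-16616997, from MARCH6 to FAM134B, had 7 higher (median 0.77). A run of 13 genes at chr12:53064316-53481162, which includes the retinoic acid receptor gene RARG, had 9 lower (median -0.77), and 9 genes at chr22:44243665-45432509 had 7 lower (median -1.13). Positions are those of the RefSeq annotation of GRCh38.p14.

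H1975-OR cells treated with osimertinib during the 96 h differed from H1975 in the same direction as the vehicle-treated cells at the genes named next. These values come from one scaling of all 15 libraries and were not tested. CDH1 was at 6.94 ± 2.20 CPM (SD, n = 3) with vehicle and 4.68 ± 2.11 CPM (SD, n = 3) with 500 nM osimertinib, against 243 ± 138 CPM (SD, n = 3) in H1975. ITGB6 had no count in any H1975-OR library that was averaged, in any condition, and ESRP1 and GRHL2 had group means of at most 0.0683 and 0.134 CPM in each H1975-OR condition. With 100 nM D3, the label's name for 1,25(OH)2D3, CDH1 was at 129.8 ± 31.0 CPM (SD, n = 2, without Sample 3a). That is above its level with vehicle and below its mean in H1975. The level of CDH1 with both agents is not reported here. AMOT was at 36.5 ± 4.83 CPM with vehicle and 41.0 ± 3.03 CPM with osimertinib, and ZEB2 at 32.5 ± 3.06 CPM and 39.3 ± 6.71 CPM (each SD, n = 3). MYOCD was at 22.6 ± 7.29 CPM with vehicle and at 11.04, 74.5, and 73.6 CPM in the osimertinib libraries 4a, 4b, and 4c, so the libraries of that condition were far apart. IGFBP5 was at 75.5, 512, and 314 CPM there, against 84.7 ± 6.21 CPM with vehicle (SD, n = 3), with Sample 4a near the vehicle level and the others above it.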

How the data were processed

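RNA was sequenced by the authors from stranded total RNA libraries of vehicle-treated H1975 and H1975-OR cells, 3 per line. The deposited values are estimated counts per gene symbol, which the authors made with kallisto (0.43.0 in the submitters' processing notes) on hg38 transcripts and summed with tximport. Whether tximport scaled them for depth or gene length is not stated, and they were treated as counts. The transcript annotation is not given in the sources used here. For the test, values were rounded to whole counts and fitted in edgeR (4.0.16, R 4.3.3). Low genes were removed with filterByExpr (minimum count 10, minimum total 15), scaled by TMM, and compared by the robust quasi-likelihood test, two-sided, with Benjamini-Hochberg adjustment over all 12513 tested genes. The fit took 8 libraries, the vehicle groups and Samples 3b and 3c of H1975-OR with D3, for one estimate of the spread, and Sample 3a was left out as in the study. Where a group had no counts, folds were taken against 3 counts over the group, and with 1 to 3 counts an exact Poisson interval (95%) was used. Floors and intervals cover counting error only.

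The genes named are members of 46 lists (pathways, junctions, matrix, cell type markers, the S and G2/M genes of Seurat 5.3.0, ribosomal protein and mitochondrially encoded genes), up to 15 largest rises and falls with a mean of at least 20 CPM in the higher line and no overlap, genes with no counts in one line and at least 5 CPM in each library of the other, and the genes with the largest difference in CPM. Any other gene was singled out after its values were seen. The members and lists were chosen with earlier results of these data known. The histone group, the order of libraries, and the check of GC content and length (longest GENCODE release 44 transcript, 94.7% of tested genes matched) were added after the values were seen. Lists are described by counts and medians, without a test. Gene positions and promoters came from RefSeq, GRCh38.p14. The test was tried on simulated counts. Alternatives were RLE size factors, DESeq2 1.42.0, other filters, other sets of libraries, the replicate letter as a block, a test against a 2-fold change, no robust estimation, and leaving out each library. The letters did not pair the libraries, and no source ties a letter to a shared day. Some listed genes are not reported here by name.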

Additional observations from a re-analysis of the deposited data

How the results depend on the processing

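The 2538 called genes became 1636 when Sample 3a was kept in the fit and 343 when tested against a 2-fold change, since that asks for a larger difference. The cause of the first was not tested. Leaving out each library in turn gave between 1430 and 2870 calls. The other settings stayed between 2072 (the vehicle groups alone) and 3041 (DESeq2). With the replicate letter as a block there were 2210 calls, 2038 of them shared. The letters pair nothing known, and deviations from the group means correlated at r of 0.0279, -0.0102, and 0.00692 between same-lettered libraries. Of 331 called genes among the 792 listed or named and tested, 157 were tested and past the threshold under every alternative other than the 2-fold test. Another 38 were past it wherever tested but were removed by a filter under at least 1 alternative, 136 were lost under at least 1, and 0 reversed. Asking for at least 10 counts in every library removed 70 of the 331. A further 119 genes, not called, passed the threshold under at least 1 alternative. Of the 15 fallen epithelial genes with a promoter, 7 held the motif with 250 or 300 bases. With 15 of 32 genes covered, setting that share beside the one of all promoters is void as a comparison. Totals of 4724370 to 5447790 counts leave low genes imprecise, 3 counts in a library being 0.521 to 0.626 CPM.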

Other observations

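Within each line, some genes had 1 library more than 4-fold above or below both others (1 CPM added, at least 20 CPM on the higher side). There were 25 genes above and 24 below for Sample 2a, 10 and 15 for Sample 2b, and 4 and 5 for Sample 2c. In H1975 the numbers were 3 and 14 for Sample 1a, 5 and 8 for Sample 1b, and 14 and 17 for Sample 1c. RIMBP3B and RIMBP3C are near-identical copies, between which the authors' counting could divide reads differently from library to library. RIMBP3B was at 0, 0, and 2222 CPM in Samples 1a, 1b, and 1c and RIMBP3C at 2219, 2483, and 32.4 CPM. The replication helicase gene MCM7, an S phase gene that was not called, was at 0, 112, and 131 CPM in H1975 and 0.620, 7.31, and 29.1 CPM in H1975-OR, with Sample 1a at 0 although Samples 1b and 1c were above 100 CPM. CNN1, the smooth muscle calponin, was at 39.5, 4.18, and 3.50 CPM in Samples 2a, 2b, and 2c and under 1 CPM in each H1975 library. UNC5B, a netrin receptor, was at 0, 19.4, and 15.1 CPM in H1975-OR and had no count in H1975, so Samples 2b and 2c carried it alone.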
